A study of Mus musculus with 6 samples.

Results

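The mitosis genes described here are 36 genes that act in the spindle, the kinetochore, the spindle checkpoint and cytokinesis. They were picked by gene symbol for their role in mitosis, with earlier results of these data known, and all 36 were found among the 24015 genes listed in the count tables. RNA was sequenced from 6 mouse libraries of sorted leukaemia stem and progenitor cells, whose donors had overt acute myeloid leukaemia caused by the MLL-AF9 fusion. Of these, 3 libraries came from mice given tamoxifen (labelled LSPCT) and 3 from untreated mice (LSPC). In both groups the leukaemia was grown from lin-cKit+ progenitors of NIKERT2 bone marrow. These carry a NIK transgene at Rosa behind a floxed stop cassette (Rosa-loxp-STOP-loxp-NIK) together with Rosa-CreERT2, a Cre recombinase that tamoxifen activates. The untreated group thus has the same alleles with the stop in place, and the effects of tamoxifen, of active Cre and of NIK cannot be told apart. The sources used here give no age of the mice, no tamoxifen dose or schedule, and no markers for the sort.

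As background, mitosis starts when cyclin B and CDK1 become active, and it ends when the anaphase-promoting complex, switched on by CDC20, marks cyclin B and securin for destruction. Between these points the kinetochores attach chromosomes to spindle microtubules, and the spindle checkpoint holds CDC20 back until every kinetochore is attached. Most genes of this machinery are transcribed late in the cell cycle through the cell cycle homology region (CHR) and CCAAT boxes of their promoters, which bind the MuvB complexes (with B-MYB and FOXM1, or as the repressive DREAM complex) and NF-Y. In acute myeloid leukaemia their transcripts are widely read as a sign of cycling cells.

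Sequences at the starts of the genes are shown first because the genes are grouped by function, and the promoters show what their control regions share. RefSeq windows (GRCm38.p6) from 250 bases before to 50 bases after the start were at hand for 30 of the 36 genes. The CHR was searched as TTTGAA or TTCGAA and the NF-Y box as CCAAT, on both strands; 1 CHR match in these windows overlapped a CCAAT match. A CHR match was present for 24 of the 30 mitosis genes (80.0%), against 16.5% of 9631 tested genes with a window. Within 50 bases of the start it was present for 22 of the 30 (73.3%), against 4.39% of the tested genes. A CCAAT match was present for 24 of the 30 mitosis genes (80.0%), against 43.0% of the tested genes.

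Nusap1, which had the largest log2 fold change of the 36 (0.84), had neither match in its window, while Cdk1, the gene of the kinase that drives mitotic entry, had 2 CHR matches and 3 CCAAT matches on the opposite strand and a log2 fold change of 0.06 that did not pass the test. The 250 bases before the start of each are given 5′ to 3′, with matches in capitals, for Nusap1 (chr2:119618048-119618297, plus strand) and for Cdk1 (chr10:69352913-69353162, minus strand).
Nusap1: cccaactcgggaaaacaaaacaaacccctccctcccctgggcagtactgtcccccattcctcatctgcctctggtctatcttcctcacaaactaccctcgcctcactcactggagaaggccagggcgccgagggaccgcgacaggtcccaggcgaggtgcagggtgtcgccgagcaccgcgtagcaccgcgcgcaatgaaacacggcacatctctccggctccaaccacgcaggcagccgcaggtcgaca
Cdk1: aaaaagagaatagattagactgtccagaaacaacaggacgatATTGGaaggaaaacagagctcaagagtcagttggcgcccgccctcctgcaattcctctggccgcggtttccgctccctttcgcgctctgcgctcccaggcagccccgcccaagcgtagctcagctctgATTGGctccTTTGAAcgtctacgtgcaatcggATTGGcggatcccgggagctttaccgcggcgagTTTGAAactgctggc

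The CHR matches closest to the start were compared in 30-base stretches of the gene's strand, with the match in capitals (TTCAAA is the same element read on the other strand). The stretches are shown for 3 genes that rose, namely Bub1b (chr2:118598231-118598260, plus strand), Ndc80 (chr17:71526811-71526840, minus strand) and Kif2c (chr4:117178858-117178887, minus strand), and for 3 that did not pass the test, namely Cdc20 (chr4:118437344-118437373, minus strand), Cenpa (chr5:30666890-30666919, plus strand) and Plk1 (chr7:122159453-122159482, plus strand).
Bub1b: ctgcgtcaagagacgttaaaTTTGAAactt
Ndc80: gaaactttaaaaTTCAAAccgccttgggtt
Kif2c: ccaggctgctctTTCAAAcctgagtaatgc
Cdc20: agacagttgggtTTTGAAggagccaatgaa
Cenpa: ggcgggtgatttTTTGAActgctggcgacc
Plk1: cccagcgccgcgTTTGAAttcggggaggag

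The element was found among genes that rose and among genes that did not pass. Of the 6 genes that rose, 3 had a CHR match in the window (Bub1b, Ndc80 and Kif2c) and 3 had none (Nusap1, Birc5 and Nek2). Over the 24 genes with a match the median log2 fold change was 0.17, and over the 6 without one it was 0.41. The match is a description of the letters in these windows, and its absence says nothing about other regions of a gene.

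**Figure D1:**
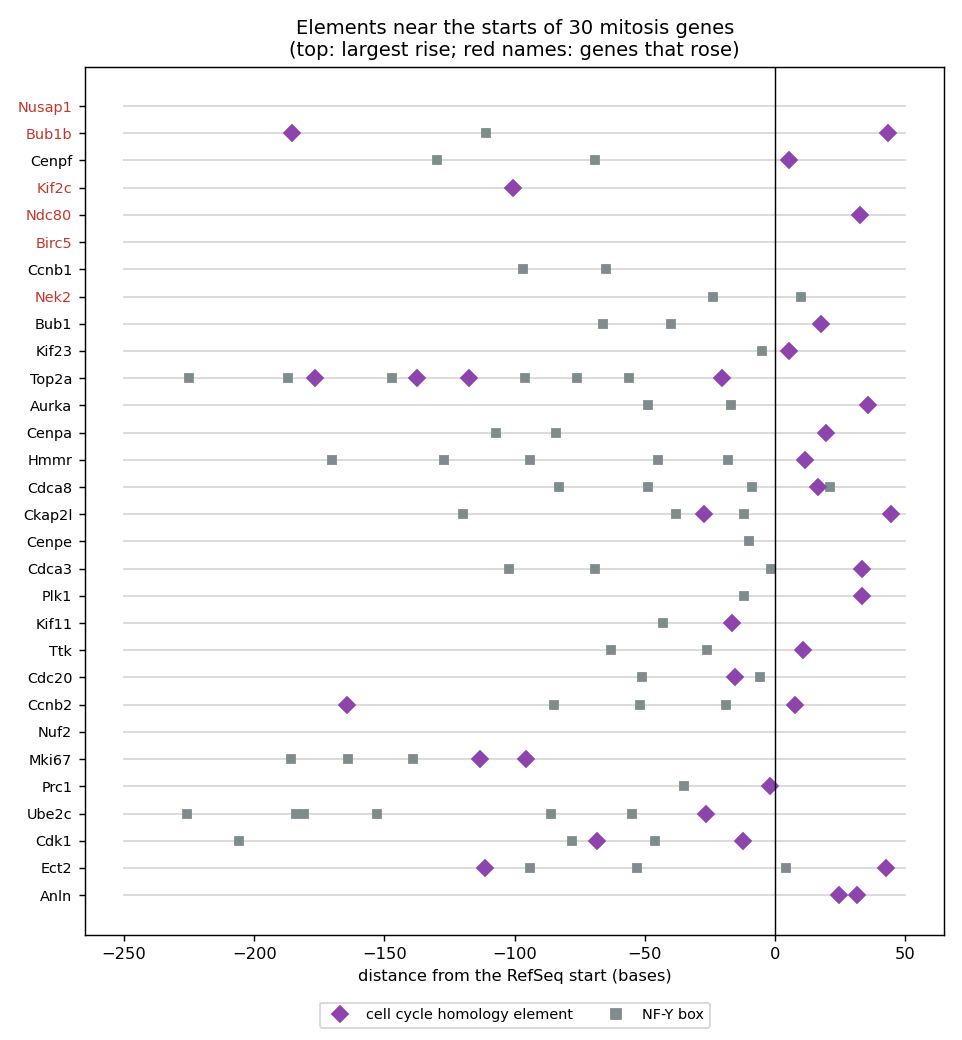
Positions of CHR matches (diamonds) and CCAAT matches (NF-Y boxes, squares) along the first RefSeq window of each of 30 mitosis genes; the x axis is the distance from the start in bases, and genes run from the largest rise at the top to the lowest value at the bottom. Most diamonds lie near the start (22 of 30 genes within 50 bases), and Nusap1, at the top, has none.

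Total counts were 19999071 to 22454753 in the tamoxifen libraries and 20410001 to 26773176 in the untreated libraries, and the 36 genes took 0.438% to 0.560% of them in the tamoxifen libraries and 0.403% to 0.454% in the untreated libraries. Levels are given as CPM (counts per 1000000 counts) scaled by TMM, and a count of 0 allows up to 0.111 to 0.150 CPM (3 counts, for counting error only). Map3k14, which encodes NIK, stood at 129.9, 190.6 and 159.5 CPM in tamoxifen replicates 1 to 3, against 26.5, 24.2 and 28.8 CPM in untreated replicates 1 to 3, and counts do not tell the transgene from the endogenous gene. Of 10 progenitor markers, none rose and 2 fell (20%, against 8.24% of all genes tested). They were Flt3 (39.2 ± 6.60 CPM with tamoxifen and 89.8 ± 12.8 CPM untreated) and Fcgr3 (156.8 ± 8.11 CPM with tamoxifen and 220.9 ± 7.97 CPM untreated, SD, n = 3 each). Kit stood at 126.3 to 193.7 CPM with tamoxifen and 117.0 to 137.5 CPM untreated. The erythroid list had its 4 globin genes listed at 0 in every library and Tfrc at 93.1 to 118.0 CPM with tamoxifen and 123.3 to 135.3 CPM untreated. The B cell list had Pax5 at 0 in every library and Cd79b at 26.2 to 47.9 CPM with tamoxifen and 39.4 to 45.0 CPM untreated. The labels do not say whether replicates are separate mice, and p-values therefore reflect only how far these samples differ, which could be technical.

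All 36 mitosis genes passed the filter on low counts and were tested. Between tamoxifen and untreated cells, 6 of them rose and none fell (two-sided quasi-likelihood test in edgeR, with an adjusted p under 0.05), a share of 16.7% higher against 8.96% of all 12729 genes tested. At an unadjusted p under 0.05, 14 were higher (38.9%, against 16% of all genes tested) and none were lower. DESeq2 called 11 higher, where it called 11.4% of all genes higher, and none lower. The changes were small. The median log2 fold change of the 36 genes was 0.20, with a range of -0.09 to 0.84, and that of all genes tested was -0.0025. The sign was positive for 33 of the 36, against 49.6% of all genes tested. Every tamoxifen library stood above every untreated library for 13 of the 36 (36.1%, against 18.1% of all genes tested), and none of the 36 lay wholly below (19.6% of all genes tested did). In bulk samples a change in the share of cycling cells cannot be told from a change in transcripts per cell.

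**Figure D2:**
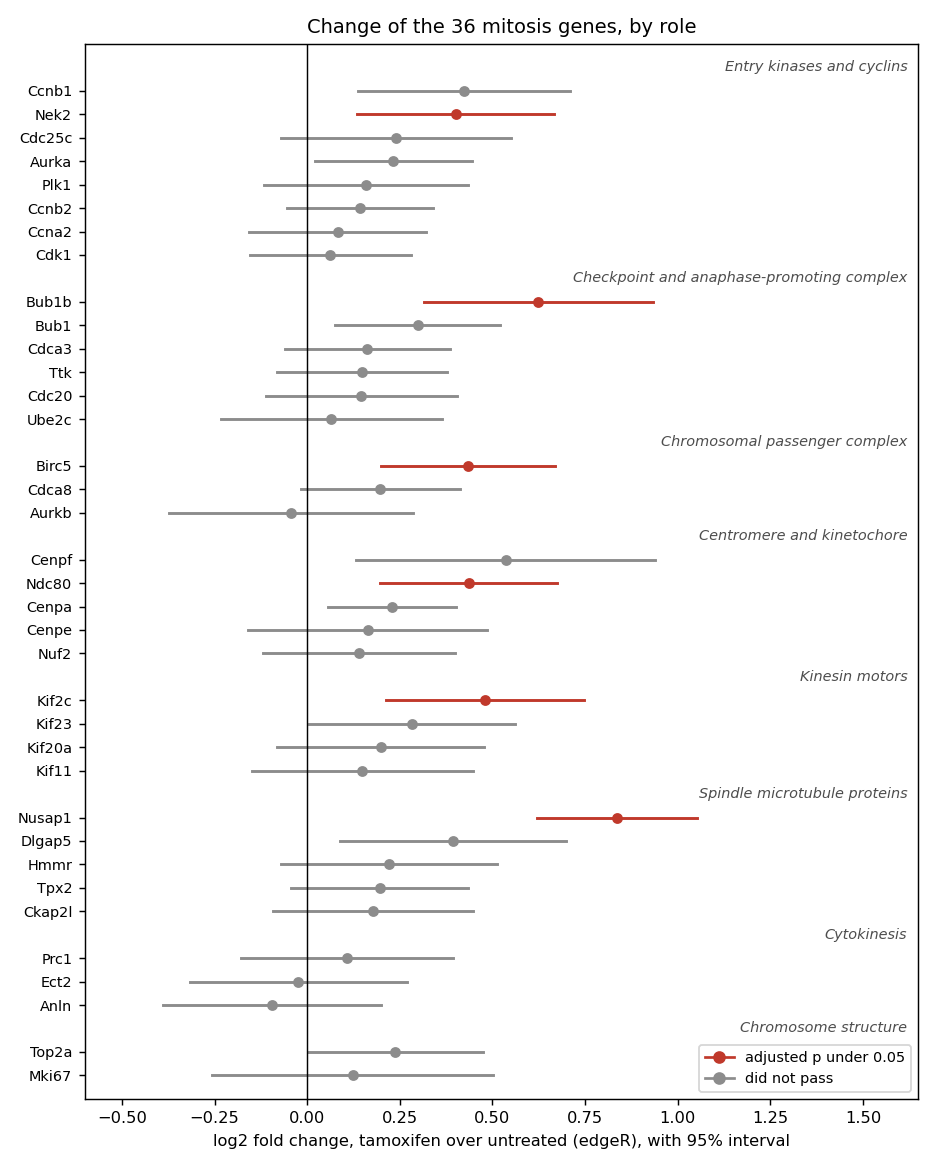
Log2 fold change of each mitosis gene, tamoxifen over untreated, with its 95% interval, grouped by role; red marks an adjusted p under 0.05. Of 36 genes, 33 lie to the right of 0, and the largest value is that of Nusap1 (0.84).

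Among the proteins of spindle microtubules, Nusap1, which binds and bundles microtubules around chromosomes, rose the most. It stood at 99.5, 113.1 and 113.5 CPM in tamoxifen replicates 1 to 3, against 61.2, 57.0 and 64.4 CPM in untreated replicates 1 to 3. The lowest tamoxifen library was thus well above the highest untreated one. The log2 fold change was 0.84 (SE 0.09, 95% interval 0.62 to 1.053, edgeR adjusted p = 0.0009), a fold of 1.79, and Nusap1 was the 1 mitosis gene that passed under every alternative and every omission of a library. The other 4 genes of this role were positive but did not pass. Dlgap5, which encodes a protein of kinetochore fibres, averaged 98.6 ± 17.1 CPM with tamoxifen and 75.1 ± 4.42 CPM untreated (SD, n = 3 each; log2 0.39, edgeR adjusted p = 0.0805), without overlap. Hmmr, Tpx2 (an activator of Aurora A) and Ckap2l had log2 values of 0.22, 0.20 and 0.18, with intervals that included 0.

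In the GENCODE annotation Nusap1 overlaps Oip5, a gene of centromere assembly on the opposite strand. The sources used here do not say whether reads were counted by strand, so shared reads cannot be told apart. In the same annotation Nek2 overlaps the antisense gene Gm38037 on the opposite strand, and Ndc80 overlaps the rRNA gene Gm23115 on the same strand. Neither of these was among the genes listed in the count tables. Oip5 averaged 11.9 ± 1.66 CPM with tamoxifen and 9.14 ± 0.96 CPM untreated (SD, n = 3 each; log2 0.38, edgeR adjusted p = 0.189).

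Among the checkpoint and anaphase-promoting complex genes, Bub1b rose. It encodes BUBR1, the checkpoint protein that binds and blocks CDC20. Its level was 169.9, 237.4 and 222.2 CPM with tamoxifen, against 137.6, 124.5 and 146.4 CPM untreated. All tamoxifen libraries were higher, replicate 1 the least so. The log2 fold change was 0.62 (SE 0.13, edgeR adjusted p = 0.0164). The related kinase gene Bub1 was also higher in every tamoxifen library, at 83.8 ± 6.15 CPM against 68.2 ± 5.16 CPM untreated (SD, n = 3 each), but missed the threshold (log2 0.30, edgeR adjusted p = 0.0725). The checkpoint kinase gene Ttk (log2 0.15), the activator gene Cdc20 (0.15), the ubiquitin-conjugating enzyme gene Ube2c (0.07) and Cdca3 (0.16), whose product promotes the loss of WEE1, did not pass, and their groups overlapped.

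Of the chromosomal passenger complex, Birc5 rose and its partners did not pass. Birc5 encodes survivin, the subunit that brings the complex to the centromere. It stood at 95.2, 107.7 and 87.9 CPM with tamoxifen, against 71.4, 67.5 and 76.3 CPM untreated, without overlap (log2 0.43, SE 0.10, edgeR adjusted p = 0.0233). Cdca8, the gene of the partner borealin, had a log2 value of 0.20 (95% interval -0.02 to 0.41), also without overlap. Aurkb, the gene of the complex's kinase, averaged 118.2 ± 24.4 CPM with tamoxifen and 121.9 ± 6.72 CPM untreated (SD, n = 3 each; log2 -0.04, 95% interval -0.37 to 0.29), and its groups overlapped.

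At the kinetochore, Ndc80, the gene of the subunit that grips microtubules, rose. It stood at 44.5, 54.0 and 55.1 CPM with tamoxifen, against 35.99, 38.4 and 39.0 CPM untreated (log2 0.44, SE 0.10, edgeR adjusted p = 0.0245). The groups did not overlap, and tamoxifen replicate 1 was again the nearest to the untreated libraries. Nuf2, its partner in the same complex, had a log2 value of 0.14 (95% interval -0.12 to 0.40) and overlapping groups. Cenpf, which encodes a large protein of the outer kinetochore, had the largest value among the genes that missed the threshold (log2 0.54, edgeR adjusted p = 0.0739). Its libraries spread widely, with 117.1, 192.9 and 168.4 CPM with tamoxifen and 97.6, 114.7 and 117.7 CPM untreated. Cenpa, the gene of the centromeric histone H3 variant, was tightly spaced at 104.9 ± 2.01 CPM with tamoxifen and 89.5 ± 1.30 CPM untreated (SD, n = 3 each; log2 0.23, edgeR adjusted p = 0.0746), without overlap. The kinesin-like motor gene Cenpe (log2 0.16) did not pass.

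Of the kinesin motors, Kif2c rose. It encodes MCAK, which removes tubulin from microtubule ends and corrects faulty attachments. Its level was 69.0, 91.3 and 85.4 CPM with tamoxifen, against 56.8, 57.9 and 61.4 CPM untreated, without overlap (log2 0.48, SE 0.12, edgeR adjusted p = 0.0257). Kif23 (log2 0.28) and Kif20a (0.20), whose proteins act at the central spindle, and Kif11 (0.15), whose protein pushes the spindle poles apart, did not pass, and their groups overlapped.

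Among kinases and cyclins of mitotic entry, Nek2, which encodes a kinase of centrosome separation, rose narrowly. It stood at 63.4, 84.0 and 75.7 CPM with tamoxifen, against 54.9, 59.6 and 54.5 CPM untreated (log2 0.40, SE 0.12, edgeR adjusted p = 0.0486). It missed the threshold with no filter (adjusted p = 0.0504) and with limma voom (0.0519). Ccnb1, the gene of cyclin B1, lay on the other side of the same line, with 122.1, 160.5 and 147.0 CPM with tamoxifen and 94.95, 112.6 and 112.9 CPM untreated (log2 0.42, edgeR adjusted p = 0.0519). It passed with RLE factors (adjusted p = 0.0496), with upper quartile factors (0.0366), with the stricter filter (0.0451) and with DESeq2 (0.0081). It missed with no scaling factors (adjusted p = 0.0536), with no filter (0.0509) and with limma voom (0.0506). Counting the block and the omissions of a library, Nek2 and Ccnb1 each passed under 6 of the 14 alternatives.

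Cdk1, the gene of the entry kinase itself, did not pass. It stood at 101.5, 101.0 and 94.3 CPM with tamoxifen, against 94.6, 86.0 and 103.5 CPM untreated (log2 0.06, 95% interval -0.16 to 0.28, edgeR adjusted p = 0.6995). Ccna2, the gene of cyclin A2, had a log2 value of 0.08 and Ccnb2, the gene of cyclin B2, one of 0.14, both with intervals that included 0. The kinase genes Aurka (log2 0.23, no overlap) and Plk1 (0.16) and the phosphatase gene Cdc25c (0.24, no overlap), whose products promote CDK1 activity, did not pass.

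The cytokinesis genes included the lowest values. Prc1, which encodes the bundling protein of the central spindle, stood at 94.0, 126.2 and 109.6 CPM with tamoxifen, against 91.9, 107.7 and 106.3 CPM untreated (log2 0.11, edgeR adjusted p = 0.606). Anln, the gene of the contractile ring scaffold anillin, had a log2 value of -0.09 and Ect2, the gene of the RhoA activator, one of -0.02, with 95% intervals of -0.39 to 0.20 and -0.32 to 0.27. The groups overlapped for all 3 genes.

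The chromosome structure genes, the most used proliferation markers of the 36, did not pass. Top2a, the gene of DNA topoisomerase II alpha, stood at 551.9, 683.2 and 686.2 CPM with tamoxifen, against 511.8, 559.9 and 557.2 CPM untreated (log2 0.24, edgeR adjusted p = 0.153). Mki67, the gene of the Ki-67 antigen that coats mitotic chromosomes, stood at 592.1, 915.4 and 905.1 CPM with tamoxifen, against 662.4, 766.6 and 786.7 CPM untreated (log2 0.12, 95% interval -0.26 to 0.50, edgeR adjusted p = 0.661). For Mki67, tamoxifen replicate 1 was the lowest of all 6 libraries and replicates 2 and 3 were the highest.

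**Figure D3:**
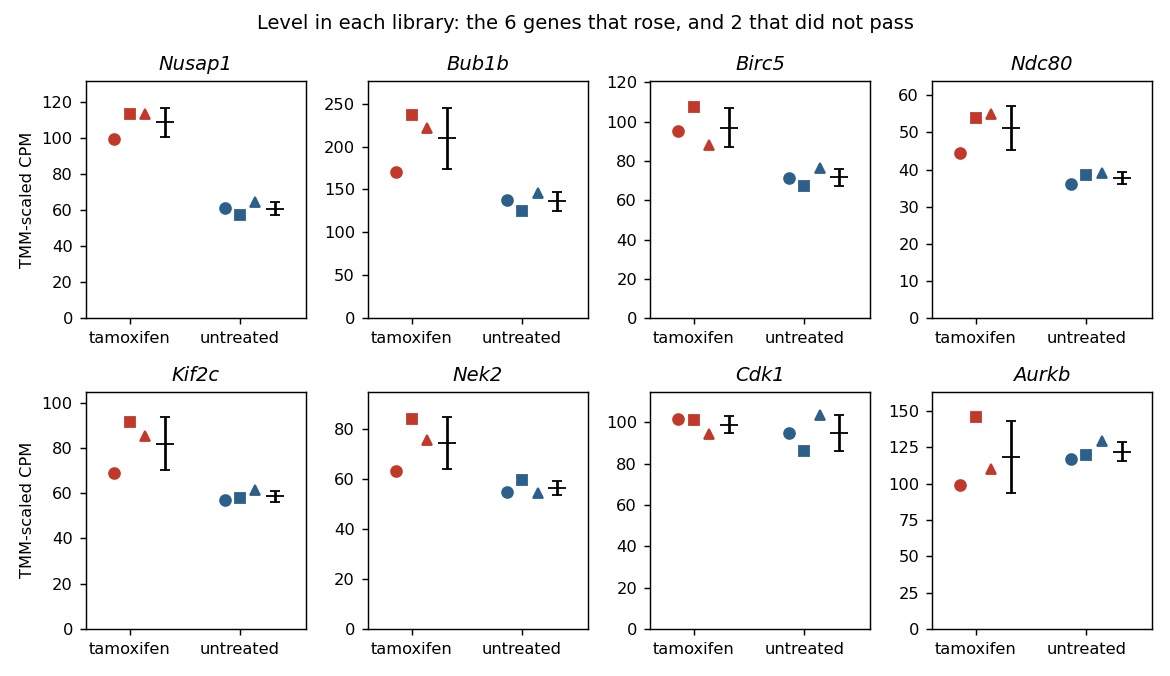
TMM-scaled CPM in each library for the 6 genes that rose and for Cdk1 and Aurkb, which did not pass; circle, square and triangle are replicates 1, 2 and 3, and the bars are the mean with the SD of 3 libraries. The groups are separate in the first 6 panels, Nusap1 by the widest margin, and overlap in the panels of Cdk1 and Aurkb.

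Differences between the groups were unequal in some pairs of genes that share a role. The log2 ratio of 2 genes within a library, in which library scaling cancels, was compared for 9 pairs. The pairs were chosen after their values were seen, with the gene of the larger log2 fold change first. The differences are therefore given as a description without a test. The ratio of Birc5 to Aurkb was higher with tamoxifen than untreated by 0.49, that of Nusap1 to Tpx2 by 0.65, that of Cenpf to Cenpe by 0.36, that of Kif2c to Kif11 by 0.33 and that of Ndc80 to Nuf2 by 0.29. In these 5 pairs, and in Birc5 to Cdca8 (0.24) and Ccnb1 to Ccnb2 (0.28), every tamoxifen library lay above every untreated one. The groups overlapped for Bub1b to Bub1 (0.31) and Ccnb1 to Cdk1 (0.35).

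The 36 genes also tended to stand high or low together in a library. Tamoxifen replicate 2 was the highest of the 3 tamoxifen libraries for 25 of the 36 genes, against 29.7% of all genes tested. Tamoxifen replicate 1 was the lowest for 26 of the 36, with a median log2 difference of -0.28 from the mean of replicates 2 and 3. Untreated replicate 1 was the lowest of its group for 28 of the 36, by a median of -0.13. Over all genes tested the corresponding medians were -0.0015 and 0.0095. Relative to the untreated mean, the median of the 36 genes on the log2(CPM + 0.5) scale was 0.09, 0.31 and 0.24 in tamoxifen replicates 1, 2 and 3, and 25, 36 and 30 of the genes lay above it. The median coefficient of variation of the 36 genes was 12.6% among tamoxifen libraries and 6.3% among untreated ones, against 13.6% among tamoxifen and 8.67% among untreated libraries over all genes tested.

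Markers of macrophages moved with the treatment and with the same library. Of 11 macrophage markers tested, 9 rose (81.8%, against 8.96% of all genes tested) and none fell. Slc40a1 and Cd163 did not pass, and Cd163 in tamoxifen replicate 2 (4.69 CPM) lay below the untreated libraries (5.31 to 7.16 CPM). The summed level of the 11 was 1612, 666 and 718 CPM in tamoxifen replicates 1 to 3, against 171 to 208 CPM in the untreated libraries. Most of that sum was Vcam1 and Emr1; the other 9 summed to 475.8, 67.7 and 113.2 CPM in tamoxifen replicates 1 to 3, against 18.3 to 40.6 CPM untreated. Among the defining markers, C1qa stood at 92.6, 8.03 and 14.3 CPM in tamoxifen replicates 1 to 3, against 0.339 to 3.63 CPM untreated, and Fcgr1 at 5.85, 0.604 and 2.43 CPM, against 0 to 0.249 CPM untreated. Tamoxifen replicate 1, which held most of this signal, was also the tamoxifen library in which the mitosis genes were nearest to the untreated level. The untreated libraries did not show the same order. Untreated replicate 1 was the lowest of its group for 28 of the 36 mitosis genes. Its macrophage sum (195.8 CPM) lay between those of untreated replicates 2 (170.6 CPM) and 3 (208.4 CPM). T cell markers (7 genes) summed to 29.3 to 79.5 CPM with tamoxifen, again highest in replicate 1, and to 18.5 to 23.0 CPM untreated. Most of the sum in tamoxifen replicate 1 was Lck (54.5 CPM). Among the tamoxifen libraries, Cd3d, Cd3e, Cd3g and Cd4 were also highest in replicate 1, while Cd2 and Cd8a were lowest there. Neutrophil markers (8 genes) were lowest in tamoxifen replicate 1 of its group. They summed to 206.5, 647.1 and 641.6 CPM in tamoxifen replicates 1 to 3, and to 29.8 to 2113 CPM untreated. Progenitor markers (10 genes) summed to 2636, 2226 and 2275 CPM in tamoxifen replicates 1 to 3, and to 2218 to 2481 CPM untreated. Hoxa9 made up 430.0, 159.4 and 153.8 CPM of these tamoxifen sums. The part of these cell types in the mitosis gene levels was not tested.

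Without tamoxifen replicate 1, 15 of the 36 genes rose and none fell, where 12.8% of all genes tested rose, and the median log2 fold change was 0.26. These 15 held all 6 named above, joined by Ccnb1, Cenpf, Cenpa, Cenpe, Dlgap5, Kif11, Kif23, Top2a and Mki67. In the other direction, Nusap1 alone passed without untreated replicate 1, without untreated replicate 2 or without tamoxifen replicate 2, where 4.46%, 5.08% and 6.94% of all genes tested rose. Birc5 and Nusap1 passed without tamoxifen replicate 3 (6.34% of all genes tested rose), and Birc5, Bub1b and Nusap1 without untreated replicate 3 (6.72%). No omission of a library turned the median negative (0.14 to 0.26).

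**Figure D4:**
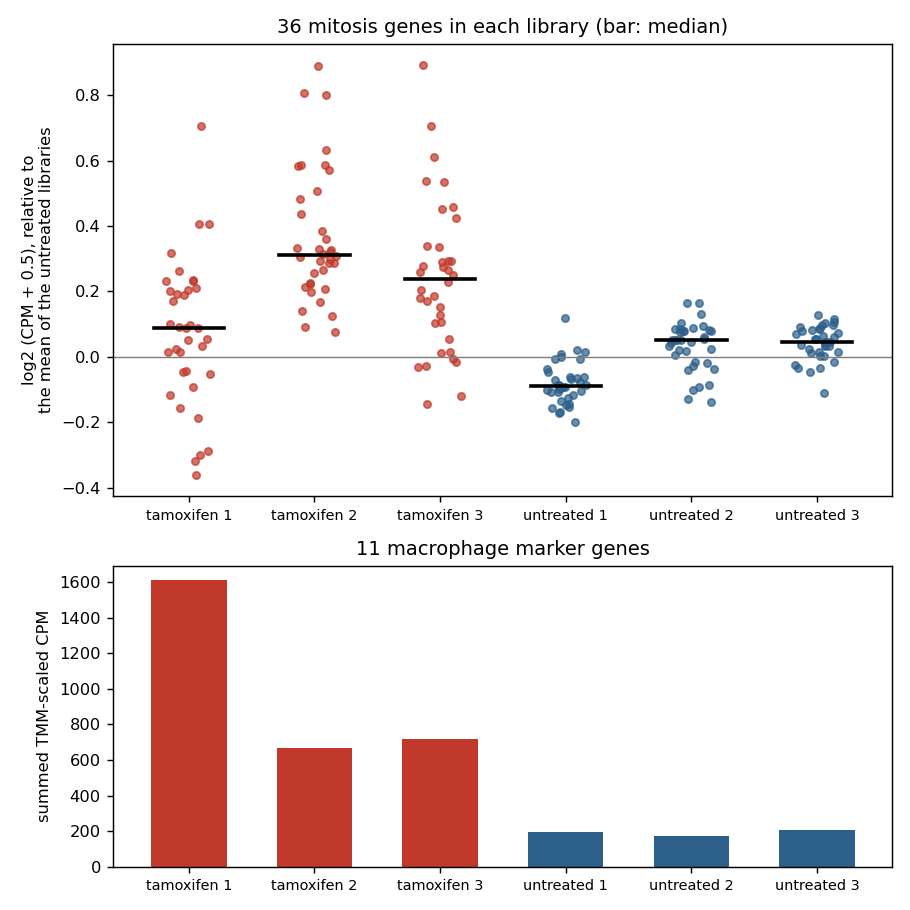
Upper panel: log2(CPM + 0.5) of each of the 36 mitosis genes in each library, relative to the mean of the untreated libraries, with the median as a bar (0.09, 0.31 and 0.24 in the tamoxifen libraries). Lower panel: summed TMM-scaled CPM of 11 macrophage markers in the same libraries, highest in tamoxifen replicate 1 (1612 CPM); Vcam1 and Emr1 make up most of each tamoxifen bar.

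Beyond the 36 genes, 150 further genes of the mitotic apparatus and its regulators were tested. Of them, 9 rose and 9 fell (6.0% each way, against 8.96% and 8.24% of all genes tested), with a median log2 fold change of 0.09. The sign was positive for 95 and negative for 55 (63.3% positive, against 49.6% of all genes tested). With DESeq2 15 rose and 9 fell, where 1450 of all 12729 genes tested rose (11.4%) and 1311 fell. With upper quartile factors 14 rose and 7 fell, where 1233 of all 12729 genes tested rose and 903 fell. Without tamoxifen replicate 1, 36 rose and 8 fell, where 12.8% of all genes tested rose and 12.3% fell.

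The largest rise was that of Melk, which encodes a kinase that peaks in mitosis (log2 0.75, edgeR adjusted p = 0.00596). Next came Ckap5, the gene of a microtubule polymerase (0.67), and Smc4, the gene of a core condensin subunit (0.64). Among 30 kinetochore and centromere genes, Spc24, another subunit of the NDC80 complex (0.34), and Cenpi (0.37) rose and Mis12 (-0.38) fell. The chromokinesin gene Kif4 (0.38), the anaphase-promoting complex subunit gene Anapc4 (0.36) and the cytokinesis genes Arhgap11a (0.52) and Shcbp1 (0.45) also rose. Of these 9, Melk and Smc4 passed under every alternative and every omission of a library.

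The genes that fell included opposed regulators of CDK1. Wee1, whose kinase inhibits CDK1, fell by 0.51, and Cdc25a, whose phosphatase activates CDKs, fell by 0.39 on the log2 scale. The cohesin loader gene Nipbl (-0.55), the augmin gene Haus3 (-0.40) and Mad2l1bp (-0.58), whose product switches the checkpoint off, fell as well.

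Among 19 transcriptional regulators of mitosis genes none rose and 3 fell (15.8%, against 8.24% of all genes tested), with a median of -0.10. Mybl2, the gene of B-MYB, stood at 103.4, 113.2 and 100.2 CPM with tamoxifen, against 150.5, 127.9 and 151.5 CPM untreated, so that every tamoxifen library was lower (log2 -0.44, SE 0.10, edgeR adjusted p = 0.0202). Foxm1, whose product takes over from B-MYB at the CHR, stood at 88.7, 124.2 and 93.4 CPM with tamoxifen, against 86.5, 96.7 and 93.6 CPM untreated, with overlap (log2 0.15, edgeR adjusted p = 0.508). Lin54, whose product is the CHR-binding subunit of MuvB, had a log2 value of -0.21 (edgeR adjusted p = 0.258). The others that fell were Tfdp2, the gene of an E2F partner (-0.35), and Cdkn1a, the gene of the CDK inhibitor p21 (-1.51).

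**Figure D5:**
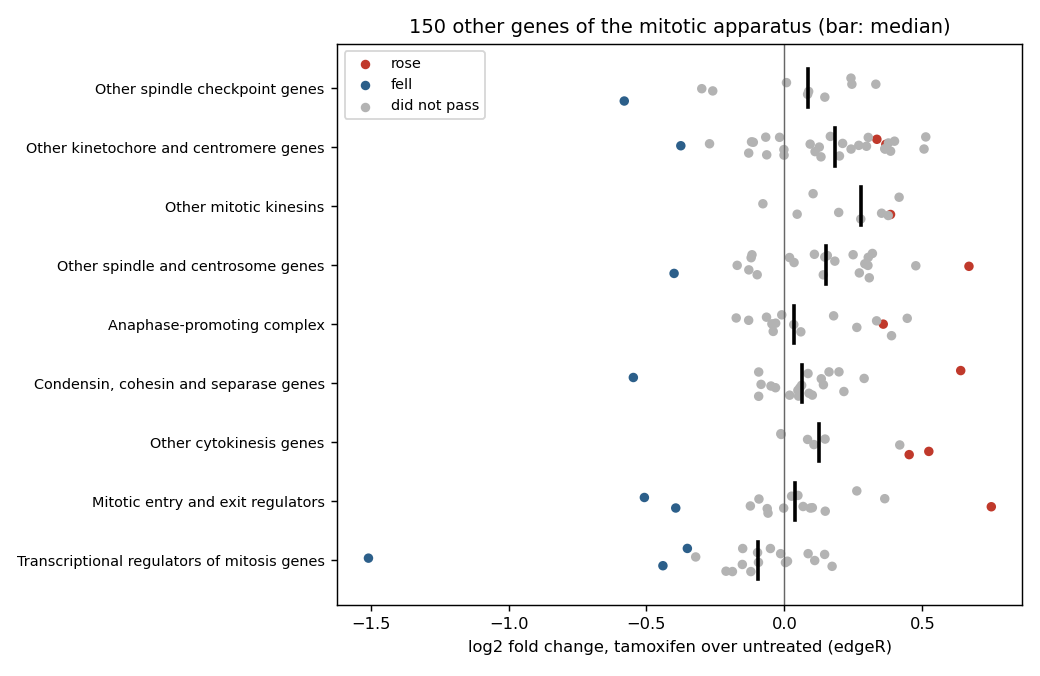
Log2 fold change, tamoxifen over untreated, of 150 other genes of the mitotic apparatus in 9 lists; red genes rose, blue genes fell, grey genes did not pass, and black bars are medians. Medians run from -0.10 for the transcriptional regulators to 0.28 for the other mitotic kinesins.

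Genes next to mitosis genes that rose, by GENCODE gene order, went both ways. Afmid, an enzyme gene beside Birc5 on the same strand, rose to 21.1 ± 3.58 CPM with tamoxifen, against 6.42 ± 0.34 CPM untreated (SD, n = 3 each; log2 1.71, edgeR adjusted p = 0.000523). Lpgat1, an acyltransferase gene next to Nek2, fell by 0.37 on the log2 scale (edgeR adjusted p = 0.0429). Smchd1 beside Ndc80 (log2 0.15), Bmf beside Bub1b (-0.53) and Ndufaf1 beside Nusap1 (0.30) did not pass.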

How the data were processed

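RNA was measured in 3 tamoxifen and 3 untreated libraries, grouped by sample title. The deposited files hold raw whole-number counts per gene symbol made by the authors, without normalization. The submitters' processing notes name mm9, TopHat2 2.1.0, featureCounts, FastQC and DESeq2 without saying which did what. The annotation, the strand setting and the handling of multiply mapped reads are not stated in the sources used here.

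With edgeR 4.0.16 under R 4.3.3, TMM factors of 0.986 to 1.007 were applied to the counts, and filterByExpr (minimum 10 counts) left 12729 of 24015 genes. Groups were compared with the quasi-likelihood F test, group as the only term, two-sided, with Benjamini-Hochberg adjustment over all genes tested and a threshold of 0.05. Each SE came from the log2 fold change divided by the root of its F, and intervals are 95%. Alternatives were DESeq2 1.42.0, voom in limma 3.58.1, RLE, upper quartile or no factors, no filter or a stricter one (3 or more libraries with CPM above 1), the replicate number as a block, and omission of each library. The members and lists were chosen with earlier results of these data known. All members are named; values in every library are given for those that passed and, in role groups with none, for the member with the smallest p (others so shown were picked after their values were seen). Of the other mitosis genes, up to 4 passing genes per list are named, and Foxm1, Mybl2 and Lin54.

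Promoter windows are from RefSeq (GRCm38.p6), and gene neighbours from GENCODE vM21, by name only. On simulated counts (12729 genes, 200 changed) the share of changed genes recovered was 26.9% at 1.5-fold, 56.7% at 2-fold and 87.9% at 4-fold. In the same simulation 17 calls were false. Library pairs within groups differed by more than sampling noise (chi-square per degree of freedom 11.8 to 50.2).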

Additional observations from a re-analysis of the deposited data

How the results depend on the processing

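The median log2 fold change of the 36 mitosis genes stayed positive under all 14 alternatives (0.14 to 0.26). The count of mitosis genes that rose was 5 to 8 under the other scalings and filters, limma voom and the block. Under these settings 959 (block) to 1233 (upper quartile factors) of all genes tested rose, and upper quartile factors also gave the 8. The count was 11 with DESeq2, where 1450 of all genes tested rose, and 1 to 15 when a library was left out. None of the 36 fell under any alternative. Over all genes, 1029 to 3249 passed when a library was left out (586 to 1657 higher and 443 to 1592 lower). Of the 150 other mitosis genes, 14 rose with upper quartile factors and 15 with DESeq2, where 1233 and 1450 of all 12729 genes tested rose. When a library was left out, 2 to 36 of the other mitosis genes rose and 2 to 8 fell.

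The labels do not say whether the replicate numbers mark pairs. The deviations of same-numbered libraries correlated at 0.143, -0.152 and 0.106. Of the libraries, 2 of 3 tamoxifen and 1 of 3 untreated correlated best with their own number. With 3 libraries a group these values cannot settle whether the samples were paired. With the replicate number as a block, 1792 of all 12729 genes tested passed (959 rose and 833 fell). Of the 36 mitosis genes 6 rose, of which 4 were among the 6 of the unblocked fit. Birc5 (edgeR adjusted p = 0.0547) and Nek2 (0.0521) missed the threshold, and Ccnb1 (0.0323) and Cenpf (0.0349) passed. Of the other mitosis genes, 7 rose and 4 fell with the block.

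With 3 libraries a group, changes under 2-fold were often missed in the simulation, and all changes of the 36 genes were under 2-fold. A gene that did not pass is therefore not shown to be unchanged. Nor is every call certain, as the same simulation also made 17 false calls.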
